A study of Mus musculus with 22 samples.

Results

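The genes of 7 chemokine receptors that steer T cells into tissues, namely Ccr2, Ccr4, Ccr6, Ccr8, Cxcr4, Cxcr5 and Cxcr6, were examined in chromatin immunoprecipitation sequencing (ChIP-seq) peak lists of mouse regulatory T cells (Treg cells). Every peak of the 18 deposited lists that overlapped a gene body, or the 10 kb on either side of it, was taken, for 7 of 21883 annotated protein-coding genes (RefSeq). The genes were chosen by name and not by their peaks, but with earlier results of these data known. The same holds for the gene lists used below. Primary Treg cells came from spleen and lymph nodes of wild-type (WT) animals and of animals with the genotype IkE5-deletion (IkE5 below), a name the labels do not expand. Ikzf1, which encodes the zinc finger factor Ikaros, is named in the title of the series. All cells of both genotypes were stimulated for 1 h with a commercial cocktail and fixed with 1% formaldehyde (5 min before histone ChIP, 30 min before the other targets). Age, strain, the allele and the promoter driving any deletion are not given in the sources used here, and nothing says that libraries came from separate animals. Acetylation of histone H3 at lysine 27 (H3K27ac, a mark of active promoters and enhancers), Foxp3 (the lineage factor of Treg cells), p300 (a histone acetyltransferase) and NFAT1 (a calcium-activated factor) had 2 lists per genotype. Ikaros had 2 lists in WT and was not mapped in IkE5.

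Chemokine receptors are G protein-coupled receptors that sense gradients of small secreted proteins and so decide which tissue a T cell enters. Ccr4 binds Ccl17 and Ccl22 and is used for entry into skin and other barrier tissue, Ccr8 binds Ccl1 and marks Treg cells of skin and tumours, Ccr6 binds Ccl20 of the gut and Ccr2 binds Ccl2 of inflamed tissue. Cxcr4 binds Cxcl12 and retains cells in bone marrow, Cxcr5 binds Cxcl13 and brings cells into B cell follicles, and Cxcr6 binds Cxcl16 and holds T cells in tissues such as liver. Activated Treg cells carry these receptors in differing combinations, whereas resting ones in lymphoid organs rely more on Ccr7 and L-selectin.

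The lists give positions only, so a peak is present or absent and has no height. Factor lists held 3435 to 26641 peaks and H3K27ac lists 35272 to 53032. For Foxp3, p300 and NFAT1 and for H3K27ac the library numbered 1 had the longer list in each genotype, and both NFAT1 lists of IkE5 were shorter than both of WT. Read depth is unknown. With 2 lists against 2 the smallest exact permutation p is 0.333. Among marker genes, H3K27ac covered all 5 Treg markers and all 5 T cell markers in each of the 4 lists. It covered 5 of 7 B cell markers in each list, with Ms4a1 at 0 and a summed length of 22.6 to 23.9 kb in WT and 19.8 to 20.0 kb in IkE5. It covered 4 of 7 myeloid markers in each list, with Lyz2, Csf1r and Adgre1 at 0 (8.31 to 12.0 kb in WT, 7.58 to 7.89 kb in IkE5), and 3 to 5 of 6 CD8 and natural killer markers, with Ncr1 at 0 (5.35 to 8.79 kb in WT, 5.58 to 5.69 kb in IkE5). B cells also use Cxcr5 and Ccr6, and monocytes use Ccr2. The part of such cells in the results was not tested.

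Of the 6 receptor genes with a RefSeq start site, 4 had one that lay under peaks of several factors in WT cells, and that of Cxcr4 lay under a Foxp3 and an Ikaros peak of WT library 2. The 250 bases before each of these start sites are therefore shown, from RefSeq (GRCm38.p6, the assembly of mm10). They are written 5′ to 3′ on the strand of the gene, with capitals marking each match on either strand to GGGAA, the core bound by Ikaros, or to GGAAA, the core bound by NFAT.
Ccr4, chr9:114496545-114496794, minus strand: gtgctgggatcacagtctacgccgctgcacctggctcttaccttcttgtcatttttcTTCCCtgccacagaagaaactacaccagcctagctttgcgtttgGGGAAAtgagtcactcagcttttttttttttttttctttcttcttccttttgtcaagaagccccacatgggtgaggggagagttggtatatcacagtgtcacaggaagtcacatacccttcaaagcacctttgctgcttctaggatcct
Ccr6, inner start site, chr17:8242276-8242525, plus strand: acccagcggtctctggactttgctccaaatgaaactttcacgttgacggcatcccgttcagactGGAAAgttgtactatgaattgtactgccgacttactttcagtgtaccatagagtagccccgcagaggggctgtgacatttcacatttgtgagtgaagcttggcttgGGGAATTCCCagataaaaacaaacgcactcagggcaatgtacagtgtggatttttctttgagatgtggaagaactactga
Ccr8, chr9:120091883-120092132, plus strand: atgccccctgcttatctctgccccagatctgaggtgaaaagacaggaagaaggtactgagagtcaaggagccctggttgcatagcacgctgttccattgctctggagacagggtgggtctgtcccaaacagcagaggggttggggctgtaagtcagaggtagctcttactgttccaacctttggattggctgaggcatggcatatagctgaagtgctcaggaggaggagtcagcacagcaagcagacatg
Cxcr4, chr1:128592300-128592549, minus strand: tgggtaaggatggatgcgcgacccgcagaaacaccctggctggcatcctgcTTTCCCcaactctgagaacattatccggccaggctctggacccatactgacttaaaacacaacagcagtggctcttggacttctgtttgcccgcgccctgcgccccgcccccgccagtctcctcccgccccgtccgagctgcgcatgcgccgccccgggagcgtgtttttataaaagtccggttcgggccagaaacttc
Cxcr6, chr9:123806227-123806476, plus strand: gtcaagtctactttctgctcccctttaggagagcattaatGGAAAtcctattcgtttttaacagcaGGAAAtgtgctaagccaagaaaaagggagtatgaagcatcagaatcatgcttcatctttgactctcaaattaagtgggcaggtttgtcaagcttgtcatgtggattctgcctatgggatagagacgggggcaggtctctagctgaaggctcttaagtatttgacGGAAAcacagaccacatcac
The Ccr4 stretch held 2 matches to GGGAA, 1 to GGAAA (overlapping in GGGAAA) and 1 to TGANTCA, the AP-1 site, and it overlapped peaks of 6 lists. The Ccr6 stretch held 2 matches to GGGAA, which meet in a palindrome, and 1 to GGAAA, and it too overlapped peaks of 6 lists. In the Cxcr4 stretch 1 match to each core overlapped the other, the Cxcr6 stretch held 3 matches to GGAAA and 0 to GGGAA, and the Ccr8 stretch held 0 of either. TGTTTAC, a forkhead site, was in none of the 5. Of 32851 RefSeq promoter windows of this length, searched on both strands, 56.2% held GGGAA, 55.6% GGAAA, 6.75% TGANTCA and 3.17% TGTTTAC, so that the short cores are common and a match only describes the letters. The inner Ccr6 start site is 1 of 2 listed for that gene, and the Ccr4 start site lies inside the Ccr4 gene body. No sequence is shown for Cxcr5.

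**Figure D1:**
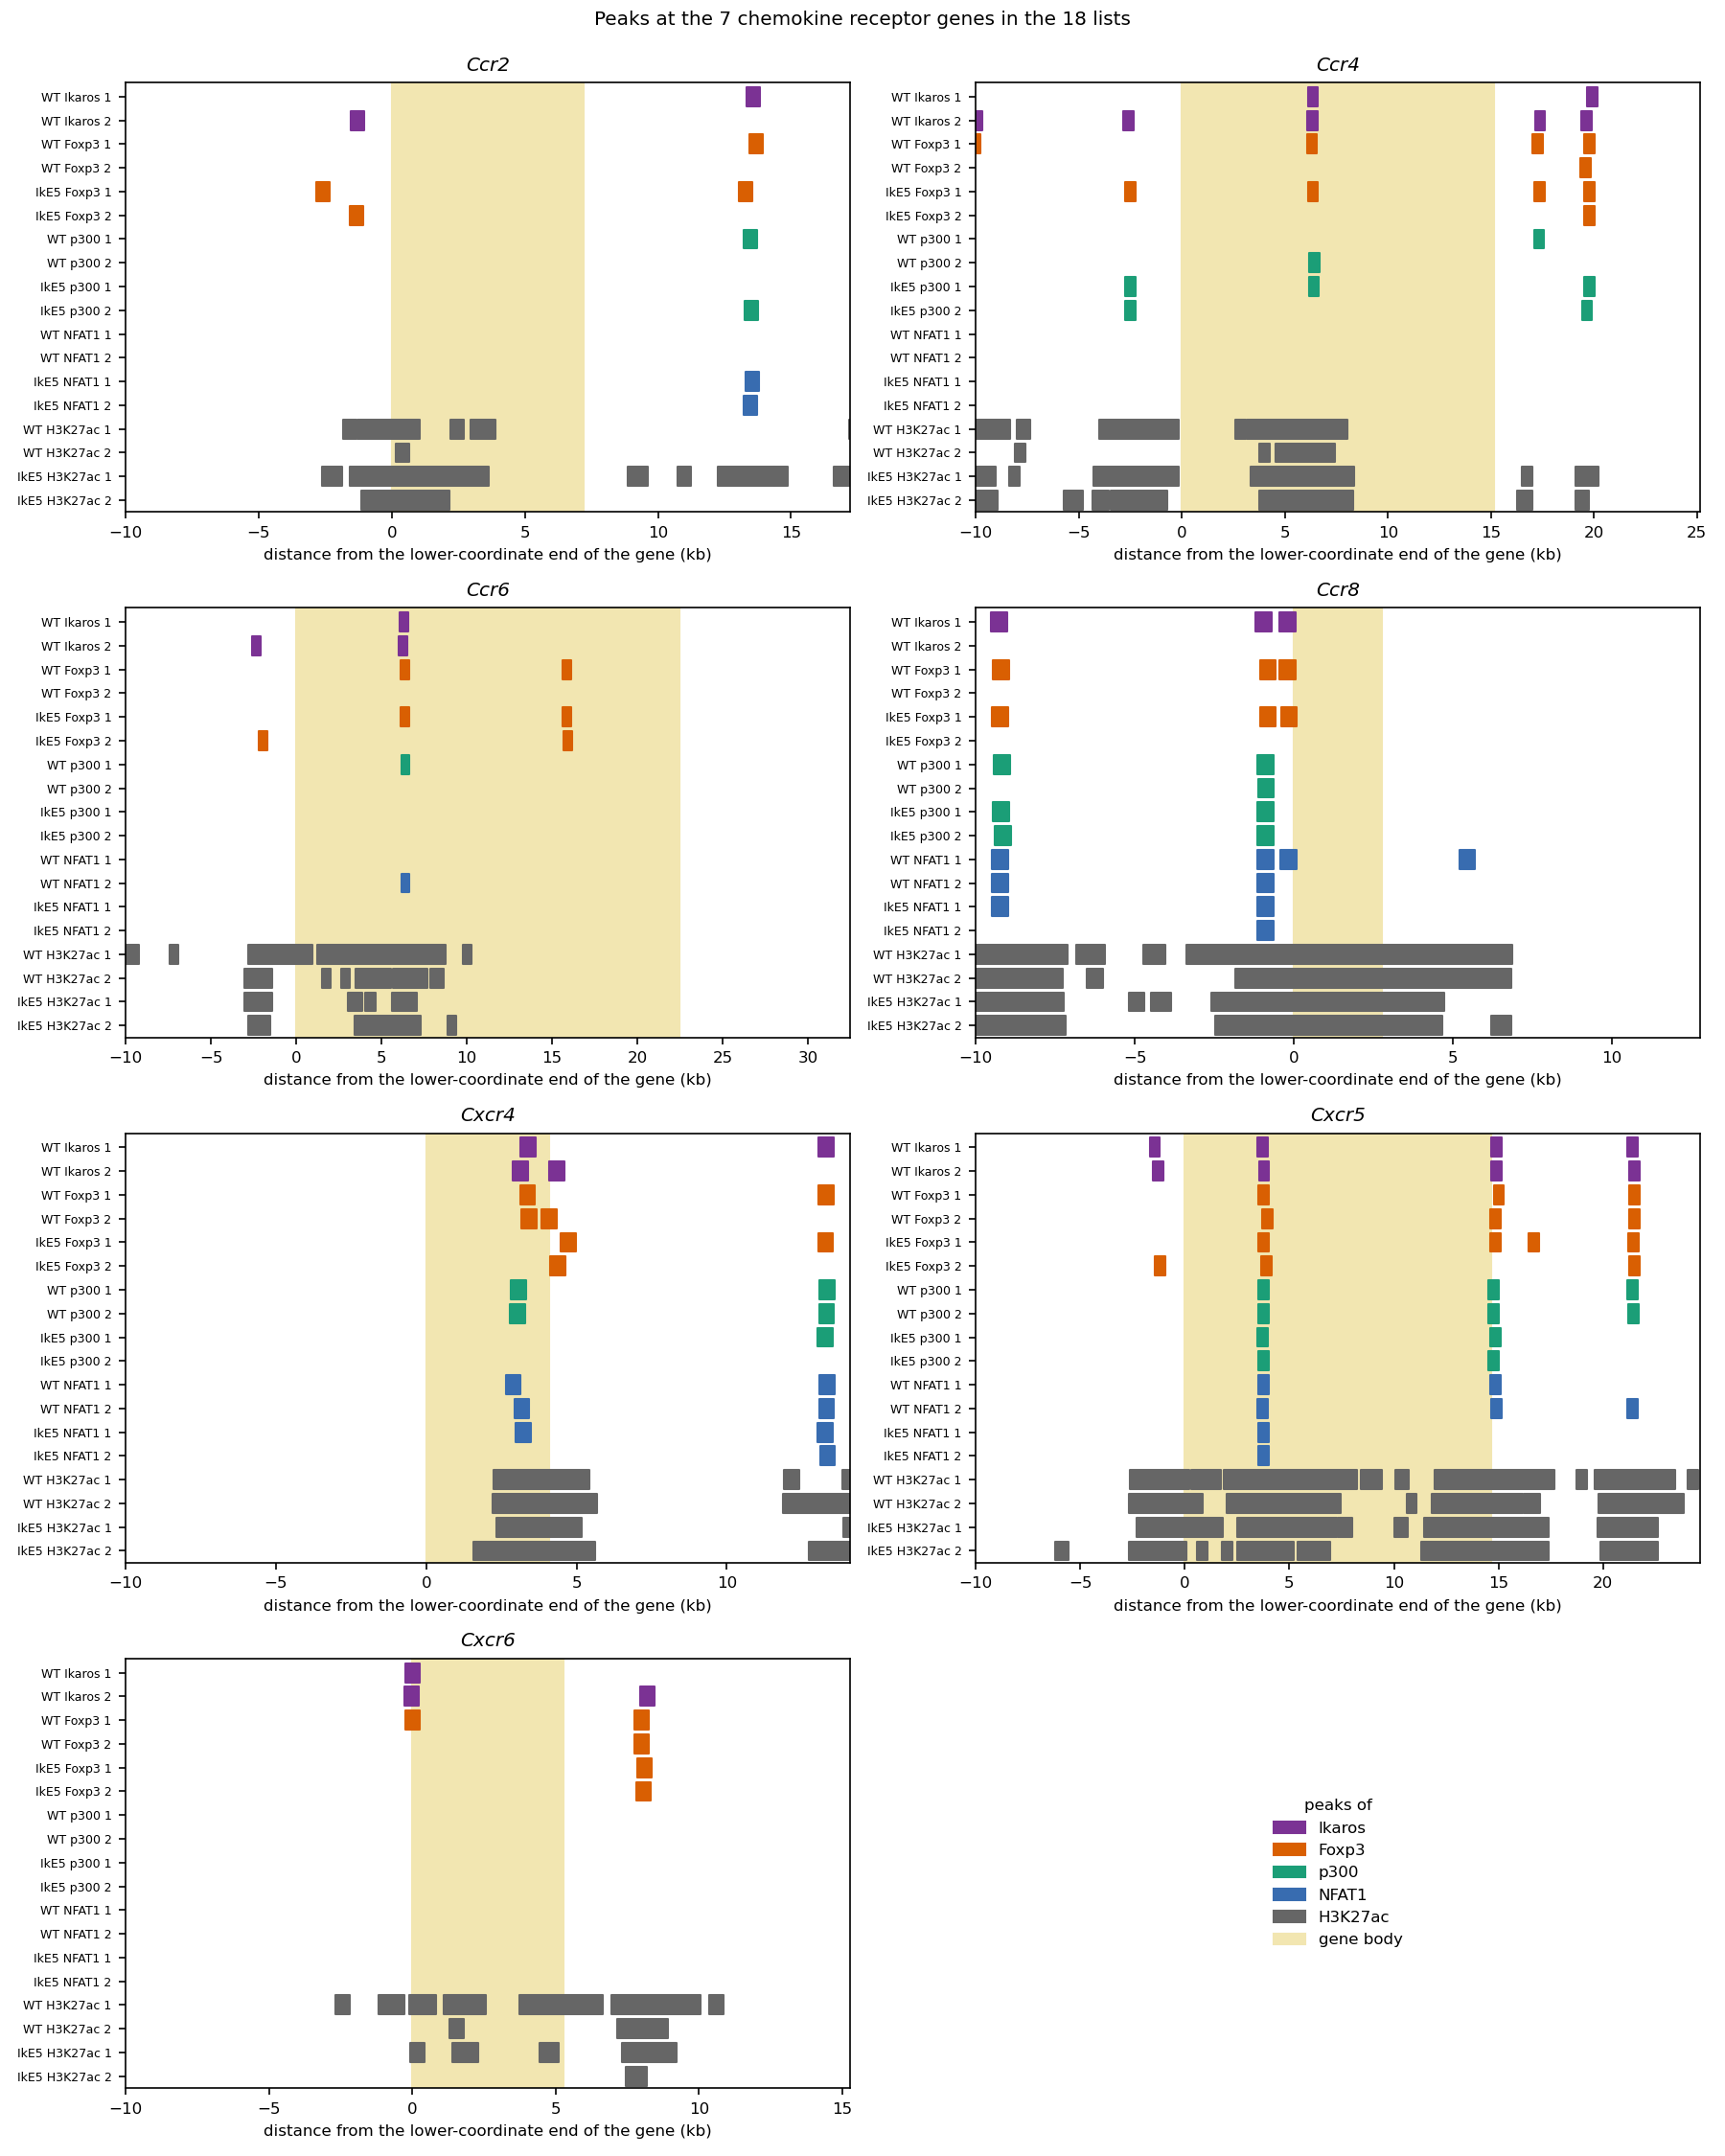
Maps of the 7 genes, with the distance in kb from the lower-coordinate end of the gene on the x axis and the 18 lists on the y axis. Bars are peaks cut at the window's edge, coloured by target, and the shaded band is the gene body. Cxcr5 and Ccr8 carry the widest H3K27ac, and Cxcr6 has no p300 or NFAT1 peak in any list.

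Peaks of Ikaros, Foxp3, p300 and NFAT1 fell into 25 sites at the 7 genes, where a site joins all factor peaks that overlap by at least 1 bp over the 14 factor lists. Of these sites, 21 (84.0%) had an Ikaros peak in WT, against 71.2% of the 44553 sites of the genome. Both Ikaros lists had a peak at 9 of the 25, against 16812 of the 44553, so by this stricter count the share was not higher. Sites present in 7 or more lists numbered 9 (36.0%, against 24.5% of all sites) and sites of a single list 3 (12.0%, against 33.6%). H3K27ac was found at 24 sites in at least 1 list and at 14 in all 4. The share of all factor sites with H3K27ac was not counted, so these counts only describe the 25 sites. Cxcr5 had 5 sites, Ccr4 5, Ccr8 4, Ccr2, Ccr6 and Cxcr4 3 each, and Cxcr6 2. Per 10 kb of window over the 14 lists there were 11.0 factor peaks at Ccr8 and 11.0 at Cxcr5, 9.54 at Cxcr4, 6.83 at Ccr4, 3.67 at Ccr2, 3.16 at Cxcr6 and 2.59 at Ccr6, where the median gene had 1.10. All 7 were thus above the median gene, at percentiles from 70.4 for Ccr6 to 99.5 for Cxcr5 and Ccr8.

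**Figure D2:**
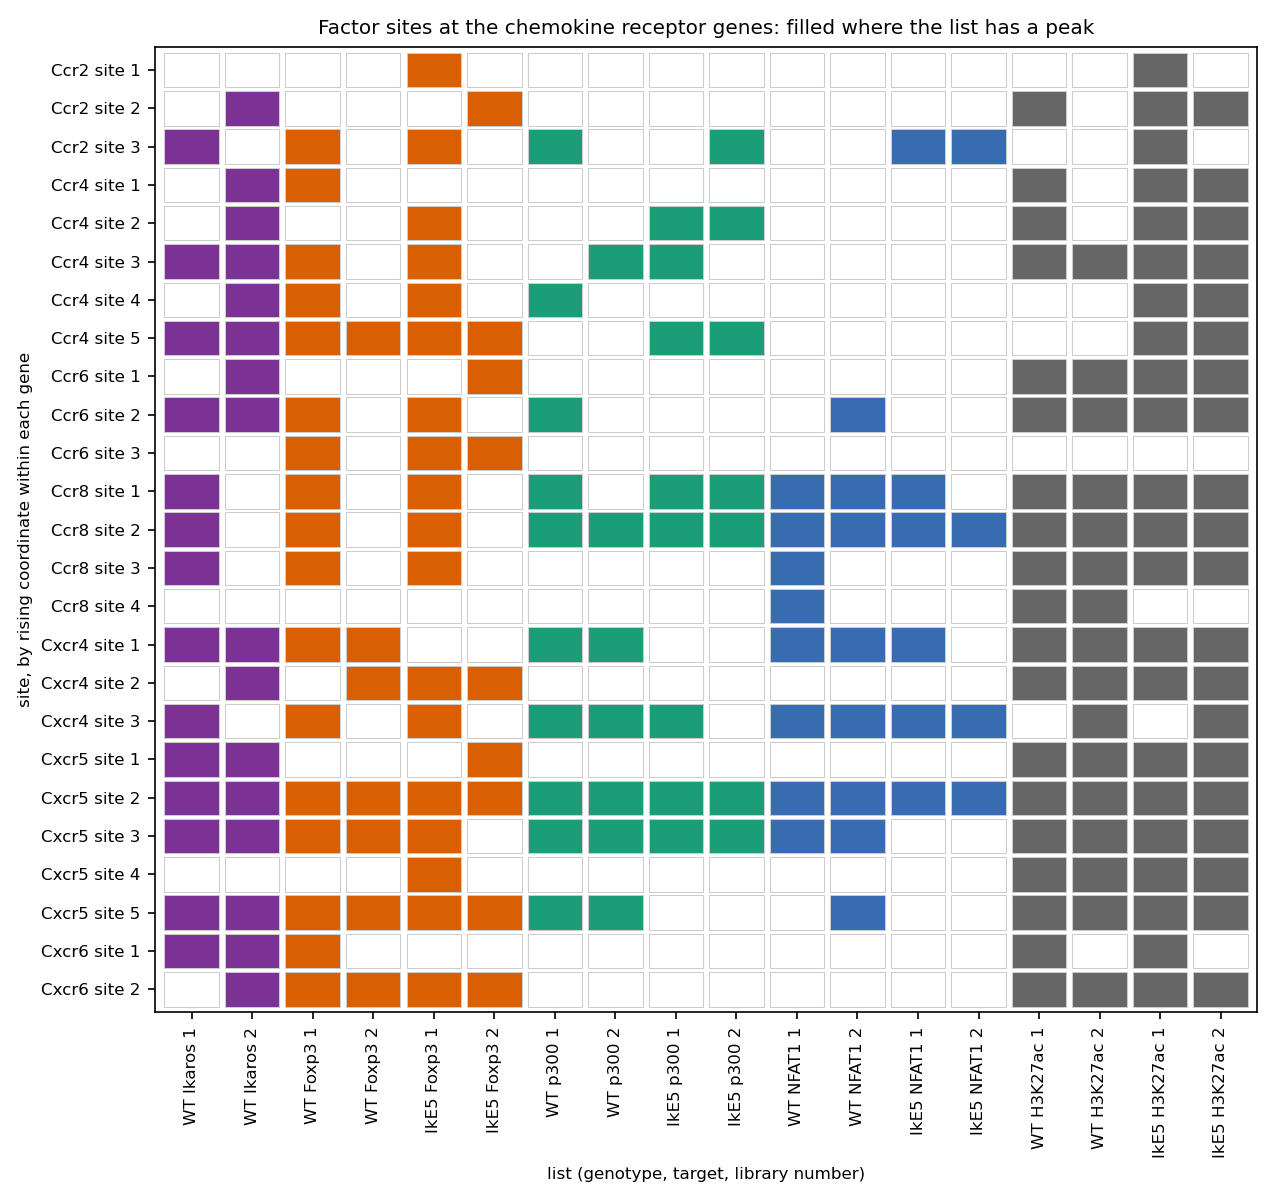
Presence of a peak (filled square, coloured by target) at each of the 25 factor sites (rows, by rising coordinate within a gene) in each of the 18 lists (columns). Cxcr5 site 2 is filled in all 14 factor lists and all 4 H3K27ac lists, and the Ccr8 sites lack Ikaros and Foxp3 in every list numbered 2.

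Cxcr5 (chr9:44511787-44526444), which marks follicular T cells, had the most factor peaks of the receptor genes (38 over the 14 lists), at the same density as Ccr8, and the genotypes differed there in p300 at its flank and NFAT1 at its end. Each WT Foxp3 list had 3 peaks there, and the IkE5 lists had 4 and 3. Each p300 list had 3 in WT and 2 in IkE5, and the NFAT1 lists had 2 and 3 in WT and 1 each in IkE5. For p300 and NFAT1 the genotypes did not overlap, WT being higher, and how many of all genes differ in this way was not counted. Both IkE5 NFAT1 lists were shorter as a whole (4908 and 3435 peaks, against 7825 and 6850 in WT). Of all genes with an NFAT1 region 31.1% had a WT only one, and of those with a p300 region 11.3%. The site inside the gene at chr9:44515235-44515969 had a peak in all 14 factor lists, as did 2.04% of the sites of the genome. At the higher-coordinate end of the gene, chr9:44526307-44527055 had both Ikaros and both WT Foxp3 lists, 1 IkE5 Foxp3 list and all 4 p300 lists. NFAT1 was present there in both WT lists and in neither IkE5 list (chr9:44526412-44526927). At chr9:44532949-44533563, which lies 6.50 kb beyond that end, Ikaros was in both lists and Foxp3 in all 4, while p300 was in both WT and in neither IkE5 list (chr9:44532949-44533486). H3K27ac overlapped these 3 sites in all 4 lists, so the missing p300 and NFAT1 peaks were not accompanied by a missing H3K27ac peak. A site in 3 lists at chr9:44510097-44510850 lies inside the neighbouring gene Bcl9l, a cofactor of Wnt signalling.

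Ccr8 (chr9:120092133-120094906), a receptor of Treg cells of skin and tumours, matched Cxcr5 in factor peaks per 10 kb (11.0), with Cxcr4 next (9.54). Ccr8 showed no site of a factor specific to a genotype. The 2 sites found in the most lists lay before the gene. The site at chr9:120090927-120091559, 0.573 kb before the gene, had all 4 p300 and all 4 NFAT1 lists, and the site at chr9:120082619-120083236, 8.90 kb before it, had 3 of 4 for each. Ikaros gave 3 peaks in WT library 1 and 0 in library 2. Foxp3 gave 3 and 0 in the WT lists and 3 and 0 in the IkE5 lists. Library number and not genotype thus separated the Foxp3 lists at this gene, with all peaks in number 1. H3K27ac formed a single peak over the start site that was 10.2 and 8.67 kb wide in WT and 7.32 and 7.14 kb in IkE5, both IkE5 peaks being narrower. Such widths are not scaled to the list, and how many start sites differ in this way was not counted. An H3K27ac region at chr9:120085279-120086179 was in both WT and in neither IkE5 list.

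Cxcr4 (chr1:128588199-128592299), the receptor of the bone marrow chemokine Cxcl12, had its intragenic p300 and Foxp3 peaks in WT lists only. At chr1:128590841-128591872, inside the gene, Ikaros was present in 2 of 2 lists, Foxp3 in both WT and neither IkE5 (chr1:128591318-128591872), p300 in both WT and neither IkE5 (chr1:128590979-128591518), and NFAT1 in both WT lists and 1 IkE5 list. The adjoining site at chr1:128592042-128593173 had Foxp3 in both IkE5 lists and in 1 WT list. Of these peaks the WT one covered the start site, and both IkE5 peaks lay upstream of it, outside the gene. When peaks within 500 bp were joined, the Foxp3 region was no longer specific to WT. The distal site at chr1:128601213-128601800, centred at -9.21 kb from the start site, had all 4 NFAT1 lists, both WT p300 lists and 1 IkE5 p300 list. The summed p300 peaks of Cxcr4 were thus 2 and 2 in WT and 1 and 0 in IkE5, and how many of all genes differ in this way was not counted. H3K27ac covered the start site in every list, in peaks of 3.19 and 3.48 kb in WT and 2.86 and 4.05 kb in IkE5, which overlap.

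Ccr4 (chr9:114490316-114505476), the receptor of Ccl17 and Ccl22, had 2 p300 and 2 H3K27ac regions in its flanks that were in both IkE5 lists and in neither WT list. At chr9:114487463-114488072, 2.24 kb beyond the lower-coordinate end, p300 was in both IkE5 and in neither WT list (chr9:114487560-114488072), beside 1 Ikaros and 1 IkE5 Foxp3 list. At chr9:114509672-114510468, centred at -13.5 kb from the start site, Ikaros was in both lists and Foxp3 in all 4, whereas p300 was in both IkE5 and in neither WT list (chr9:114509731-114510355). H3K27ac was there in both IkE5 and in neither WT list too (chr9:114509411-114510539), as it was at chr9:114506570-114507346. That distal site lies between Ccr4 and Trim71, a gene of early development whose lower-coordinate end is at 114511268, so it cannot be given to either gene by position. Not all of the flank differed in this way, since H3K27ac at chr9:114479209-114482942 was in all 4 lists and p300 at chr9:114507408-114507907 in WT library 1 alone. Foxp3 gave 4 peaks at the gene in library 1 and 1 in library 2 of either genotype, and NFAT1 gave 0 in all 4 lists. The site over the start site, whose sequence is shown above, had Ikaros in both lists, and Foxp3 and p300 in 1 list of each genotype.

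Ccr2 (chr9:124101918-124109140), a receptor of inflamed tissue, had few peaks, and NFAT1 was found there only in IkE5 lists. At chr9:124114949-124115848, 5.81 kb beyond the gene, NFAT1 was in both IkE5 and in neither WT list (chr9:124115152-124115702), and p300 and Foxp3 were in 1 list of each genotype and Ikaros in 1 of 2. H3K27ac was present at that site in 1 IkE5 list. The start site had no factor peak in any list, but H3K27ac covered it in all 4, in peaks of 2.35 and 0.500 kb in WT and 5.19 and 3.29 kb in IkE5, the latter both wider. These widths are not scaled to the list, and how many start sites differ in this way was not counted. Over the whole window the scaled lengths of the genotypes overlapped.

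Ccr6 (chr17:8236041-8258519), the receptor of Ccl20, had 3 factor sites, of which the one in the most lists (6) was at the inner of 2 RefSeq start sites (chr17:8242026-8242690). There Ikaros was in both lists, Foxp3 in 1 list of each genotype, and p300 and NFAT1 in 1 WT list each and in 0 IkE5 lists. H3K27ac covered the inner start site in peaks of 7.51 and 2.02 kb in WT and 1.46 and 3.90 kb in IkE5, which overlap, and the outer start site in WT library 1 alone. The site at chr17:8233456-8234328, before the gene, had Ikaros in 1 of 2 lists and Foxp3 in 1 IkE5 list. The site at chr17:8251655-8252237 had Foxp3 in 3 of 4 lists with no Ikaros and no H3K27ac, the single site of the 25 without H3K27ac in any list.

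Cxcr6 (chr9:123806477-123811754), a receptor of tissue-resident T cells, lies inside Fyco1 (chr9:123789500-123851899), a gene of vesicle transport, and it was the least occupied by p300 and NFAT1, with 0 peaks of either in all 8 lists. Foxp3 was in all 4 lists at chr9:123814231-123814913, 2.48 kb beyond the gene, with Ikaros in 1 of 2. At the start site (chr9:123806200-123806730) Ikaros was in both lists and Foxp3 in 1 WT list and 0 IkE5 lists. H3K27ac covered that start site in library 1 of each genotype (0.924 kb in WT, 0.500 kb in IkE5) and in neither library 2.

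**Figure D3:**
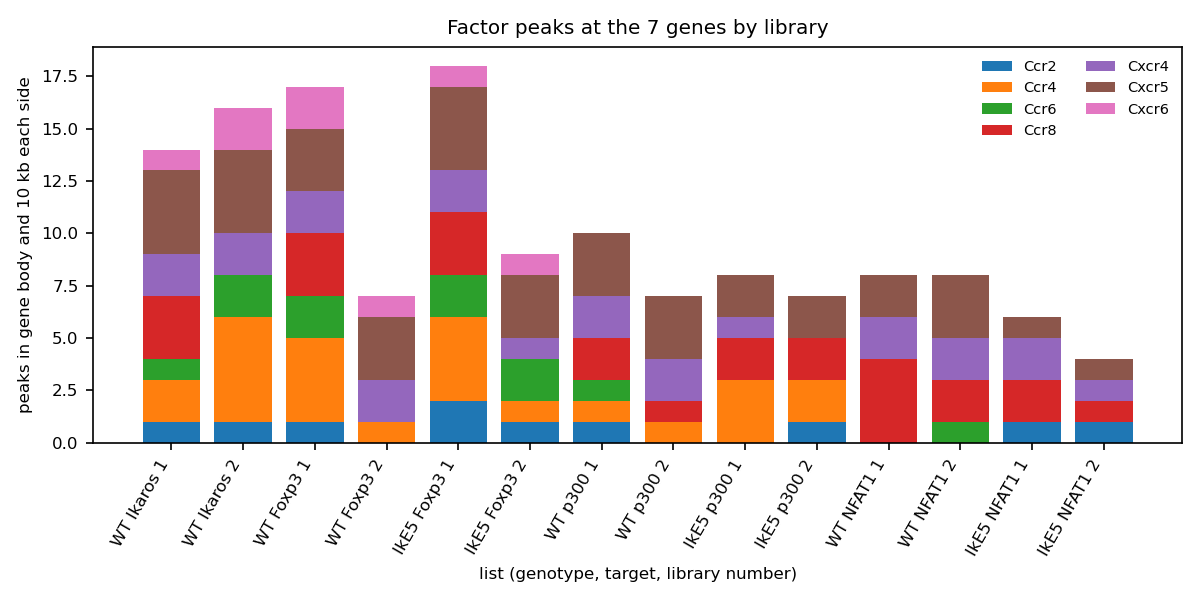
Number of peaks (y axis) at the 7 genes in each of the 14 factor lists (x axis), stacked and coloured by gene. The Foxp3 lists numbered 1 reach 17 and 18 peaks and those numbered 2 reach 7 and 9, in WT and IkE5 in that order.

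Summed over the 7 genes, the raw counts of the genotypes did not overlap for NFAT1 alone, in an exact permutation test that cannot go below p = 0.333. Foxp3 had 17 and 7 peaks in the WT lists and 18 and 9 in the IkE5 lists, or 12.0 ± 7.07 and 13.5 ± 6.36 (SD, n = 2 each, exact permutation p = 0.667, two-sided). The lists numbered 1 were the high ones in both genotypes. The p300 lists of WT had 10 and 7 peaks and those of IkE5 8 and 7 (exact permutation p = 1.00), so the groups overlapped. Per 10000 peaks of the whole list p300 had 8.73 and 7.98 in WT and 6.86 and 7.80 in IkE5, both lower (exact permutation p = 0.333, the smallest possible). NFAT1 had 8 and 8 in WT and 6 and 4 in IkE5, with both IkE5 lists lower (exact permutation p = 0.333, the smallest possible). Per 10000 peaks of the whole list, however, NFAT1 had 10.2 and 11.7 at these genes in WT and 12.2 and 11.6 in IkE5. The groups then overlapped (exact permutation p = 0.667), with the mean of IkE5 the higher one, so that the lower count went with shorter lists. Poorer libraries and weaker NFAT1 binding in IkE5 cannot be told apart here, nor can fewer cells with a bound site and less binding per cell. The H3K27ac lists had 38 and 23 in WT and 33 and 27 in IkE5, which overlap (exact permutation p = 1.00).

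Sites specific to a genotype, taken as both lists of it and neither of the other, were few at these genes. Regions were made by joining the peaks of a target's 4 lists that shared 1 bp or more. A WT only Foxp3 region was found at 1 of 7 genes (Cxcr4), against 6.31% of all genes with a Foxp3 region, and an IkE5 only region at 0 of 7, against 7.25%. For p300, 2 of the 6 genes with a region had a WT only region (Cxcr4 and Cxcr5), against 11.3%, and 1 of 6 had an IkE5 only region (Ccr4, with 2 regions), against 8.56%. For NFAT1, 1 of 5 had a WT only region (Cxcr5), against 31.1%, and 1 of 5 an IkE5 only region (Ccr2), against 4.61%. For H3K27ac, 1 of 7 had a WT only region (Ccr8), against 13.3%, and 1 of 7 IkE5 only regions (Ccr4, with 2), against 11.2%. Counts of 1 or 2 genes cannot be set apart from these shares. By region, 1 of 24 Foxp3 regions at these genes was WT only and 0 were IkE5 only, where all regions gave 2.44% and 3.22%. Of 13 p300 regions 2 were of each kind, where all gave 5.63% and 6.01%. Of 11 NFAT1 regions 1 was of each kind, where all gave 19.4% and 3.72%, and of 41 H3K27ac regions 1 was WT only and 2 were IkE5 only, where all gave 4.69% and 3.90%. Of the regions at these genes, those in all 4 lists were 4 of 24 for Foxp3 (16.7%, against 22.5% of all regions), 3 of 13 for p300 (23.1%, against 22.9%), 3 of 11 for NFAT1 (27.3%, against 17.5%) and 13 of 41 for H3K27ac (31.7%, against 31.2%). Regions with Foxp3 in both WT lists overlapped a region with Ikaros in both lists at 5 of 6, against 86.4% of all such regions, and for p300 and NFAT1 this held at 4 of 6 and 3 of 6, against 80.9% and 73.2%.

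**Figure D4:**
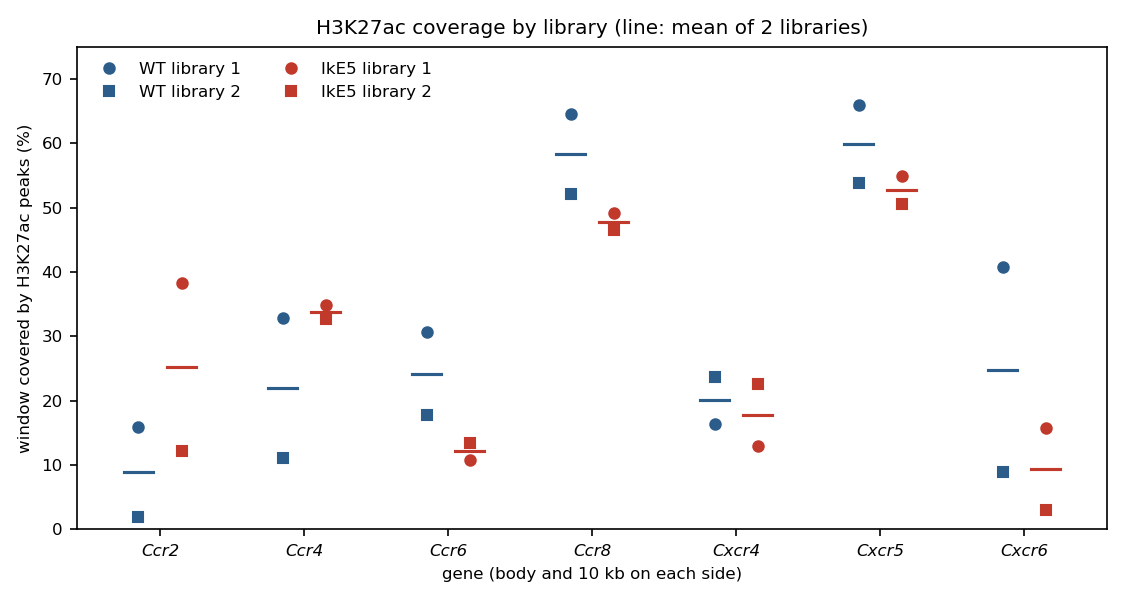
Share of the gene body and 10 kb on each side that H3K27ac peaks cover (y axis, %, as deposited and not scaled), by gene and genotype. Circles are library 1, squares library 2 and lines the mean of both. Cxcr5 and Ccr8 lie between 46.5% and 65.9% in every list, above every value of the other 5 genes.

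H3K27ac covered more of Cxcr5 and Ccr8 than of the other 5 genes in both genotypes. The share of the window covered in WT was 59.9% ± 8.48 at Cxcr5 and 58.4% ± 8.72 at Ccr8 (SD, n = 2). It was 24.8% ± 22.5 at Cxcr6, 24.1% ± 9.18 at Ccr6, 21.9% ± 15.4 at Ccr4, 20.0% ± 5.18 at Cxcr4 and 8.87% ± 9.95 at Ccr2. The lists of Cxcr5 and Ccr8 overlapped, as did those of neighbours among Cxcr6, Ccr6, Ccr4 and Cxcr4, while both lists of Cxcr4 were above both of Ccr2. In IkE5 the order was Cxcr5 (52.7% ± 3.19), Ccr8 (47.9% ± 1.92), Ccr4 (33.7% ± 1.52), Ccr2 (25.2% ± 18.6), Cxcr4 (17.7% ± 6.81), Ccr6 (12.1% ± 1.87) and Cxcr6 (9.36% ± 8.99). Here the lists of Cxcr5, Ccr8 and Ccr4 did not overlap, while Ccr4 overlapped Ccr2 and each later gene its neighbour. Over all genes the median was 3.17% in WT and 3.13% in IkE5. The 7 genes lay at percentiles of 74.0 (Ccr2) to 99.6 (Cxcr5 and Ccr8) in WT and 75.3 (Cxcr6) to 99.3 (Cxcr5) in IkE5.

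The covered length itself was compared between genotypes with limma across 12711 genes, with each list scaled by its total. Of those genes 94 were higher in IkE5 (0.740%) and 49 lower (0.385%) at an adjusted p under 0.05, and 0 of the 7 receptor genes passed, with 3 of 7 at an unadjusted p under 0.05 (limma), as were 1636 of the 12711 genes. Where a library is left out below, the single list of that genotype is assumed to vary like the others, so the p rests on borrowed spread. Their median log2 difference, IkE5 minus WT, was -0.20, and that of all genes -0.02. These values are on the scale of log2(length + 1000 bp), which understates changes of short lengths. Scaled lengths at Ccr4 were above both WT lists in both IkE5 lists, as for 18.4% of all genes. At Ccr6, Ccr8 and Cxcr5 both IkE5 lists were below both WT lists, as for 21.1% of all genes.

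Ccr2 had 3.66 and 0.616 kb of scaled H3K27ac in WT and 9.64 and 3.57 kb in IkE5, so the genotypes overlapped by a small margin. Its log2 difference was 1.34 ± 0.50 (SE, limma adjusted p = 0.290, 95% interval 0.20 to 2.49). The value depended on the libraries kept. It was 2.07 without WT library 1 (limma adjusted p = 0.00960) and 1.97 without IkE5 library 2 (limma adjusted p = 4.26e-07), but 0.59 without WT library 2 (limma adjusted p = 0.794) and 0.73 without IkE5 library 1 (limma adjusted p = 0.425). Ccr4 had 9.74 and 4.78 kb in WT and 11.3 and 12.5 kb in IkE5. WT library 2 was the low one. The log2 difference was 0.71 ± 0.29 (SE, limma adjusted p = 0.347), and without WT library 1 it was 1.15 (limma adjusted p = 0.0280), but 0.26 without WT library 2 (limma adjusted p = 0.912).

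Ccr6 had 11.0 and 9.25 kb in WT and 4.22 and 6.17 kb in IkE5, both lower. This was the largest difference of the 7 relative to its error, at -0.86 ± 0.23 (SE, limma adjusted p = 0.129), and without IkE5 library 2 it was -1.09 (limma adjusted p = 0.0231), with -0.63 without IkE5 library 1 (limma adjusted p = 0.601). Cxcr6 had 8.69 and 2.76 kb in WT and 3.67 and 0.822 kb in IkE5. Library 1 was above library 2 in both genotypes, and the groups overlapped. Its log2 difference was -1.05 ± 0.50 (SE, limma adjusted p = 0.434), and without IkE5 library 1 it was -1.71 (limma adjusted p = 3.61e-05) and without WT library 2 -1.76 (limma adjusted p = 0.105). It was -0.36 without WT library 1 (limma adjusted p = 0.787) and -0.37 without IkE5 library 2 (limma adjusted p = 0.869).

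Ccr8, Cxcr5 and Cxcr4 differed little. Ccr8 had 12.4 and 14.7 kb in WT and 10.3 and 11.5 kb in IkE5, a difference of -0.28 (limma adjusted p = 0.702, 95% interval -0.75 to 0.18). Cxcr5 had 19.3 and 23.0 kb in WT and 17.6 and 19.0 kb in IkE5, a difference of -0.20 (limma adjusted p = 0.854, 95% interval -0.66 to 0.26). Both sets of IkE5 values lie under the WT values by less than 1 kb at the nearest point. Cxcr4 had 3.34 and 7.05 kb in WT and 2.86 and 5.88 kb in IkE5, at -0.20 (limma adjusted p = 0.953, 95% interval -0.99 to 0.60), and here the groups overlapped widely.

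**Figure D5:**
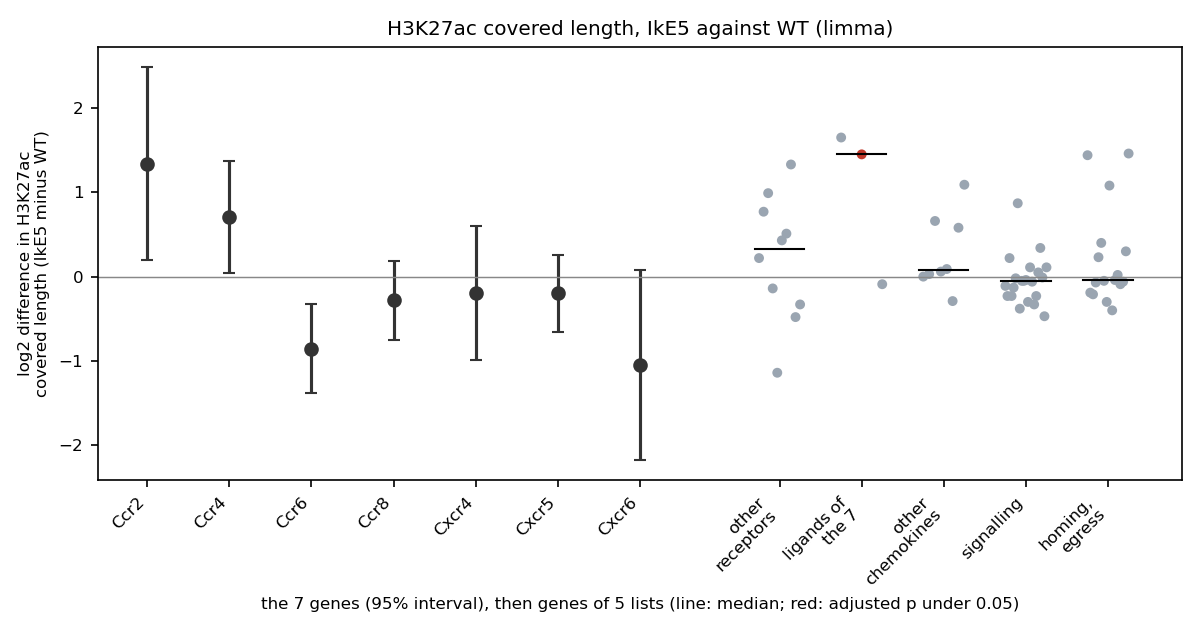
Log2 difference in scaled H3K27ac covered length, IkE5 minus WT (y axis, log2 scale), for the 7 receptor genes with 95% intervals from limma, and for single genes of 5 lists of the chemokine system, with a line at the list's median. Ccl1 is the only listed gene past an adjusted p of 0.05, and Ccr2 (1.34) and Cxcr6 (-1.05) are the extremes of the 7.

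Among the ligands of these receptors, H3K27ac rose at Ccl1, which encodes the ligand of Ccr8. It had 2.51 and 2.78 kb of scaled H3K27ac in WT and 10.4 and 7.64 kb in IkE5, both IkE5 lists far above both WT lists. The log2 difference was 1.45 ± 0.22 (SE, limma adjusted p = 0.0238), which lost the call without scaling (limma adjusted p = 0.284), with median-ratio scaling (limma adjusted p = 0.115) and with H3K27ac peaks of at least 1000 bp only (limma adjusted p = 0.0870). Ccl1 also had an IkE5 only NFAT1 region, and 1 WT only and 1 IkE5 only Foxp3 region. Ccl17, a ligand of Ccr4, had 3.19 and 0.616 kb in WT and 6.74 and 7.62 kb in IkE5 (1.65 ± 0.38 SE, limma adjusted p = 0.0912) and an IkE5 only p300 region. Cxcl16, the ligand of Cxcr6, had a difference of -0.09 (limma adjusted p = 0.971). Of the 11 ligand genes 3 could be tested, 1 rose and 0 fell, and Ccl22 had no peak of H3K27ac in any list. The median of the 3 was 1.45. The list of ligands was drawn up with earlier results of these data known, so the p of Ccl1 does not stand as independent support.

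Other receptors of the family were tested at 10 of 17 genes, of which 0 rose and 0 fell (limma), with a median of 0.33. Cxcr3, a receptor of T helper 1 cells, had 6.83 and 1.27 kb in WT and 10.2 and 9.04 kb in IkE5 (limma adjusted p = 0.250) and an IkE5 only region of Foxp3, p300 and NFAT1. Ccrl2, an atypical receptor, had IkE5 only regions of Foxp3, p300 and H3K27ac (log2 difference 0.43, limma adjusted p = 0.473), and Ccr3, the eotaxin receptor, a WT only Foxp3 and an IkE5 only H3K27ac region (0.77, limma adjusted p = 0.342). Of 25 other chemokine genes 8 were tested with 0 in either direction (limma) and a median of 0.08. Cx3cl1 and Cxcl17 each had 1 IkE5 only H3K27ac region, and Ccl28 had 1 WT only and 1 IkE5 only. Of 23 genes that relay or damp receptor signals 21 were tested, with 0 in either direction and a median of -0.05. There Prex1, an exchange factor for Rac, had a WT only region of p300, of NFAT1 and of H3K27ac (2) and 2 IkE5 only regions of H3K27ac. Grk6, a receptor kinase, had a WT only region of each of these targets, and Dock2, another exchange factor for Rac, had 1 WT only p300, 2 WT only NFAT1 and 1 IkE5 only H3K27ac regions. All 16 homing and egress genes were tested with 0 in either direction and a median of -0.05. Cd44, a hyaluronan receptor, had 2 IkE5 only p300 regions and 1 of Foxp3, and a WT only region of NFAT1 and of H3K27ac. Selplg, which encodes the selectin ligand PSGL-1, had 1 p300 region specific to each genotype and an IkE5 only region of NFAT1 and of H3K27ac, and Itgb2, an integrin chain, had a WT only region of p300, NFAT1 and H3K27ac. Genes were named here for having such regions, and long windows hold more regions, with 42 of H3K27ac at Prex1 and 46 at Dock2. Of all H3K27ac regions 4.69% were WT only and 3.90% IkE5 only. For p300 the shares were 5.63% and 6.01%, for NFAT1 19.4% and 3.72%, and for Foxp3 2.44% and 3.22%. The named genes were not tested against these shares.

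The genes with the most similar peak profile over the 18 lists were found by Euclidean distance on log2(covered kb + 1), leaving out genes whose windows overlap. All 7 receptor genes had a peak in at least 9 lists, from 10 for Cxcr6 to 18 for Cxcr5. Nearest to Cxcr5 were Ptpn6 (distance 0.868) and Arpc2 (0.901), where the median gene lay at 6.95. Nearest to Ccr8 were Trex1 (1.29) and Gimap5 (1.32), to Ccr4 Tmbim1 (1.22) and Capsl (1.30), and to Cxcr4 Topors (1.05) and Smim27 (1.06). Nearest to Ccr6 were Tmem120b (1.07) and Ccnk (1.30), to Ccr2 Slco4a1 (1.44) and Kctd11 (1.51), and to Cxcr6 Erp44 (1.15) and Fbxw8 (1.27). None of these is a chemokine receptor gene.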

How the data were processed

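Of 22 samples, 18 have a peak list and 4 inputs were not used here. A deposited list gives each peak's position in mm10, with no score. Per the submitters' processing notes, FastQC, Bowtie2, MACS2, bedtools and HOMER were used, with roles and settings not given in the sources used here. Each library has its own list. Peaks of the factors are 500 bp wide with few exceptions, so that their width carries no signal. Genes are the protein-coding genes of RefSeq GRCm38.p6, whose table here gives neither exons nor introns. Strand and start sites came from the RefSeq promoter table, which holds 6 of the 7 genes. Covered length was summed in the gene body and 10 kb on each side, scaled to the list's total, and tested where its mean reached 1000 bp, as log2(length + 1000 bp), with limma 3.58.1 in R 4.3.3 (trended prior, Benjamini-Hochberg at 0.05). On simulated data with 177 tested genes changed 4-fold among 12571, limma recovered 76.3% with 4 false calls. The simulated libraries varied independently, whereas same-numbered H3K27ac lists deviated together with a correlation of 0.46. The largest log2 difference of the 7 genes, 1.34, was also short of a 4-fold change. These rates therefore do not give the power or error of the test at the 7 genes. Other steps ran in Python 3.11.15. Alternatives varied the scaling, pseudocount, filter, window, peak width, joining and libraries. Of 26 other chemokines listed 25 were in the annotation, and of 25 signalling genes 23. The genes and lists were chosen with earlier results of these data known. Named were all 7 genes and, per list, genes past limma and up to 3 with regions specific to a genotype for the most targets. A p-value here reflects only how libraries vary, which may be technical.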

Additional observations from a re-analysis of the deposited data

How the results depend on the processing

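Of 104 recomputed log2 differences in covered length (the 7 receptor genes and Ccl1), 90 kept their direction and side of the threshold. Cxcr4 turned to 0.00 with a 2 kb window, 0.25 without WT library 2 and 0.22 without IkE5 library 1 (-0.64 to 0.25 over the libraries left out). The cause was not tested. The numbers of genes higher and lower in IkE5 (94 and 49) became 0 and 0 without scaling (1156 at an unadjusted p under 0.05), 19 and 3 with median-ratio scaling, 54 and 24 without a filter, 28 and 16 with H3K27ac peaks of at least 1000 bp and 638 and 610 with a replicate block. The lower ones became 31 with a pseudocount of 500 bp and 81 with a 2 kb window. Leaving out 1 library gave 85 to 377 higher and 41 to 310 lower. Library numbers are shared labels only. Same-numbered H3K27ac lists deviated together with a correlation of 0.46 across genes, and with the replicate block Ccr2 (limma adjusted p = 0.00214), Ccr6 (0.0217) and Cxcr6 (0.00444) passed.

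Region counts at the 7 genes are small. Joining within 500 bp gave 0 WT only regions for Foxp3 and 0 for H3K27ac, and an overlap of at least 250 bp gave 2 for H3K27ac. A 2 kb window gave 1 WT only and 0 IkE5 only for p300, 0 IkE5 only for NFAT1, and 0 WT only and 1 IkE5 only for H3K27ac. A 50 kb window gave 5 WT only for p300, 6 WT only and 2 IkE5 only for NFAT1 and 3 WT only for H3K27ac. H3K27ac peaks of at least 1000 bp gave 0 WT only and 0 IkE5 only. Within library 1 or library 2 alone, WT only and IkE5 only counts were 2 to 3 and 4 to 4 for Foxp3, 4 to 5 and 3 to 4 for p300, 3 to 5 and 1 to 1 for NFAT1, and 3 to 11 and 6 to 7 for H3K27ac. The mean difference in summed peaks, IkE5 minus WT, turned to 0.984 for NFAT1 and 0.229 for H3K27ac per 10000 peaks, with the genotypes overlapping for both (exact permutation p = 0.667 for each). Within single library numbers it was -4 to -2 for NFAT1 and -5 to 4 for H3K27ac. A stricter threshold for factor peaks was not run, since the lists carry no score.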
